A study of Homo sapiens with 6 samples.

Results

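The genes described here encode the machinery that copies DNA. The set holds 48 of the 17687 genes named on the array, listed by symbol for their known role, though with earlier results of these data known, and each was represented by 1 probe set. They were sorted by role into 7 groups: 9 genes of origin licensing, 14 of the replicative helicase and its activating kinase, 8 of the DNA polymerases, 6 of the sliding clamp and its loader, 5 of flap processing and single-strand binding, 4 of nucleotide supply and 2 chromatin factors of S phase.

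Gene expression was measured on Human Clariom S arrays in THP-1 cells. This established line of human monocytic leukaemia was cultured with 100 ng/ml PMA for 2 days, which turns the cells into macrophage-like cells. A mimic of miR-130a-3p, miR-151a-3p, let-7e-5p, let-7d-3p or miR-146a-5p, or a negative control mimic (mimic NC), was then added with a lipid reagent for 24 h. All 6 cultures were the same line with the same PMA treatment, and each is 1 sample on 1 array. No value therefore has a replicate error, no difference could be tested, and each comparison below is between arrays rather than between conditions. Mimics are synthetic double-stranded RNAs that act like the miRNA they are named for. The sample titles name the mimic, while the treatment text of the labels names let-7a-5p for every sample.

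Values are log2 signals, so a log2 ratio of 1 is a 2-fold difference, and levels were compared between arrays for the same gene and never between genes. Background was set at 5.39, where 348 probe sets of olfactory receptor genes had their 95th percentile. Of the 21448 probe sets 14667 were brighter than this on 1 array or more. Of the 48 replication genes 47 did so and 45 exceeded it on all 6 arrays. LIG1 was below background on all 6 arrays, MCM10 was above it on 1 array and CDT1 on 3. The arrays had median signals of 6.92 to 6.95. All 11 monocyte and macrophage markers measured were above background on every array, and their summed signal stayed between 18.96 and 19.01 log2. The labels also call the line lymphocyte-like. Of 5 T and NK cell markers 1 or 2 were above background per array (summed signal 6.77 to 7.16). CD3E was above it on all 6 (5.80 to 6.09), CD3G with miR-151a-3p alone, and CD3D, CD2 and CD8A on no array. Of 3 B cell markers 2 were above background on every array (summed signal 8.31 to 8.62). These were CD79A (6.68 to 7.68) and PAX5 (7.27 to 7.81), while MS4A1 was below it on all 6. None of 6 epithelial and fibroblast markers exceeded background (6.62 to 7.03).

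DNA replication starts at sites bound by the origin recognition complex, where CDC6 and CDT1 load the ring of MCM proteins during G1. At the start of S phase kinases turn this ring into an active helicase together with CDC45 and the GINS complex, and polymerases, held on DNA by the PCNA clamp, copy both strands. Most of these genes are known to be transcribed under the control of E2F factors when cells enter S phase, and monocytic cells treated with PMA are known to slow or leave the cell cycle.

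With the miR-130a-3p mimic most replication genes were higher than with mimic NC. Of the 48 genes 44 were above mimic NC (91.7%, against 50.1% of all 14667 probe sets above background), with a median log2 ratio of 0.43, that is 1.35-fold, against 0.01 for all probe sets. At least 1.5-fold higher were 15 of the 48 (31.2%, against 3.88% of all probe sets), and none was at least 1.5-fold lower (3.32% of all probe sets). As measured, 4 were past 2-fold (0.464% of all probe sets), namely CDC45 (2.45-fold), CDC6 (2.31-fold), the chromatin factor CDCA7 (2.19-fold) and MCM10, which was below background with mimic NC and so has only the bound of at least 1.67-fold. The 4 genes below mimic NC were ORC4, ORC5, POLD1 and LIG1, with log2 ratios between -0.02 and -0.11. The -0.11 is that of LIG1, which was below background on both arrays and so has no order.

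The level with miR-130a-3p was also above the other mimics. In 33 of the 48 genes (68.8%, against 17.5% of all probe sets) the miR-130a-3p array was the highest of the 6, by a median gap of 0.31 log2 to the next array and by at least 0.2 in 23 of them. That next array was let-7e-5p in 22 of the 33. Set directly against each other mimic, which leaves mimic NC out, the median difference was 0.58 against let-7d-3p (45 of 48 genes higher, 52.9% of all probe sets), 0.51 against miR-151a-3p (45 of 48, 46.8%), 0.42 against miR-146a-5p (43 of 48, 49.6%) and 0.22 against let-7e-5p (38 of 48, 51.9%). Over all probe sets these medians lay between -0.02 and 0.03. In a bulk sample more cells in S phase and more of these RNAs per cell cannot be told apart.

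**Figure D1:**
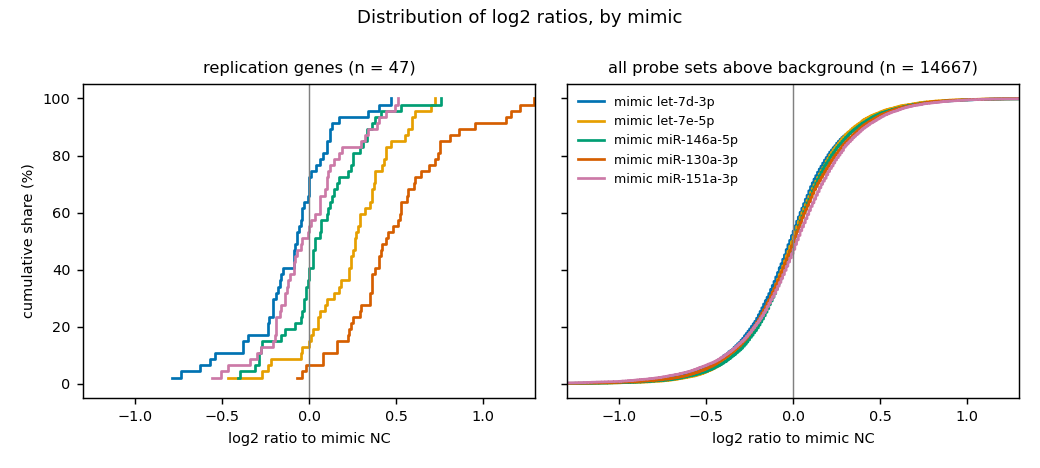
Cumulative share of genes (vertical axis, %) by log2 ratio to mimic NC (horizontal axis) for the 47 replication genes above background (left) and all 14667 probe sets above background (right), 1 line per mimic and 1 array per mimic. On the left the miR-130a-3p line lies furthest to the right (median 0.44) and let-7e-5p next (0.26), while on the right all 5 lines cross near 0.

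The promoters of the replication genes were searched for the letters of an E2F site. Most of these genes are known to be under E2F control. A high share of matches thus follows from the choice of genes and says nothing about any array. RefSeq windows of 300 bases (GRCh38.p14, 250 before to 50 after a start site) were matched by symbol for 42 of the 48 genes, 56 windows in all, and searched on both strands for TTTGGCGC, TTTCCCGC, TTTGCCGC and TTTCGCGC, spellings which can overlap each other. At least 1 of the 4 was found in 23 of 56 windows (41.1%), against 3.31% of all 35116 windows and 4.44% of the windows of other genes above background here. By gene it was 22 of 42 (52.4%), against 3.99% of all genes with a window and 6.03% of the other genes above background. The CCAAT box, searched as CCAAT on both strands, was in 53.6% of the windows and in 34.6% of all windows. A match of letters is a description and not evidence of binding. The following stretches of 26 bases are 6 examples from genes at least 1.5-fold higher with miR-130a-3p whose match lies before the start site, with the matched letters in capitals, on either strand. MCM3 and UHRF1 also met this description and are not printed. They are chr1:91501035-91501060 for CDC7, chr2:173354798-173354823 for CDCA7, chr6:24775324-24775349 for GMNN, chr2:135876577-135876602 (minus strand) for MCM6, chr20:5126665-5126690 (minus strand) for PCNA and chr13:33818085-33818110 for RFC3.
CDC7: gcagttcctTTTCCCGCcccccttcg
CDCA7: tgtcccaacGCGGGAAAgacagcccg
GMNN: tgggtcggtTTTGGCGCgctctcact
MCM6: ctttgcaTTTGGCGCGAAAtcccttt
PCNA: gcgtcagggGCGGGAAAaggcgtgcg
RFC3: ttggagctcGCGGGAAAacttgtctc

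In MCM6 the capitals run over 2 overlapping matches, TTTGGCGC on the printed strand and TTTCGCGC on the other. CDC6, MCM2 and GINS1 held their match within the first bases after the start site. Matches were also held by genes with small log2 ratios with miR-130a-3p, such as ORC3 (0.16), GINS2 (0.22), GINS3 (0.23) and MCM7 (0.25). The 22 genes with a match had a median log2 ratio of 0.58 with miR-130a-3p. Of these 22 genes 11 were at least 1.5-fold higher (against 3.88% of all probe sets). The 20 genes without a match had a median of 0.38, and 3 of them were at least 1.5-fold higher. The ranges overlapped, from -0.11 to 1.21 and from -0.07 to 1.29. The -0.11 is that of LIG1, whose signals were below background. CDC45, the gene with the highest ratio, and MCM10 held none of these letters in their windows. With let-7e-5p the medians were 0.30 and 0.17, with let-7d-3p -0.08 and -0.07. They were 0.04 and -0.11 with miR-151a-3p, and 0.05 and 0.01 with miR-146a-5p. No test was made of these differences.

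For 3 of the mimics the mature miRNA is printed from RefSeq (GRCh38.p14), with the seed, bases 2 to 8, in capitals, since the seed decides which mRNAs a miRNA pairs with.
let-7d-3p: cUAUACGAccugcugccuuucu
let-7e-5p: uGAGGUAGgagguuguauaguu
miR-146a-5p: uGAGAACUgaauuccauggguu

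These lie at chr9:94178895-94178916, chr19:51692793-51692814 and chr5:160485372-160485393, all on the plus strand. The let-7d-3p and let-7e-5p mimics come from opposite arms of related hairpins and share no seed. Of the 48 replication genes 24 had their lowest level of the 6 arrays with let-7d-3p (21.6% of all probe sets), against 2 of 48 with let-7e-5p (16.2%). The 24 include CDT1, whose signal with let-7d-3p was below background. Whether the seeds bear on these levels was not tested.

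Origin licensing genes were uneven. ORC1 to ORC6 form the complex that marks origins, CDC6 and CDT1 load the helicase there, and geminin (GMNN) blocks CDT1 until the next cycle. With miR-130a-3p 7 of the 9 were higher (against 50.1% of all probe sets), with a median log2 ratio of 0.41. Of these, 2 were higher by at least 1.5-fold (against 3.88%). CDC6 was at 11.24 with miR-130a-3p, 10.39 with let-7e-5p, 10.03 with mimic NC, 9.91 with miR-151a-3p, 10.03 with miR-146a-5p and 9.88 with let-7d-3p. The miR-130a-3p array stood 0.85 above the next, while the other 5 lay within a range of 9.88 to 10.39.

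GMNN was at 7.98 with miR-130a-3p, 7.61 with let-7e-5p, 7.23 with mimic NC, 7.24 with miR-151a-3p, 7.37 with miR-146a-5p and 6.60 with let-7d-3p. It was thus 1.68-fold higher with miR-130a-3p and 1.55-fold lower with let-7d-3p. Within the origin recognition complex ORC1, the subunit known to be made and destroyed with the cell cycle, stood at 10.51 with miR-130a-3p and between 9.93 and 10.12 on the other 5 arrays, a fold of 1.36 over mimic NC. ORC6 had similar levels with miR-130a-3p (7.92) and let-7e-5p (7.93) and its lowest with let-7d-3p (6.72, 1.73-fold under the 7.51 of mimic NC). The 4 core subunits ORC2, ORC3, ORC4 and ORC5 had log2 ratios of 0.16, 0.16, -0.07 and -0.04 with miR-130a-3p. These 4 thus stayed nearer to mimic NC than ORC1 and ORC6.

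CDT1 was dim, at 5.73 with miR-130a-3p, 5.79 with let-7e-5p, 5.20 with mimic NC, 5.01 with miR-151a-3p, 5.96 with miR-146a-5p and 4.46 with let-7d-3p. Counted from background it was at least 1.48-fold higher with miR-146a-5p, at least 1.32-fold with let-7e-5p and at least 1.27-fold with miR-130a-3p. Its 3 arrays below background have no order among themselves.

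**Figure D2:**
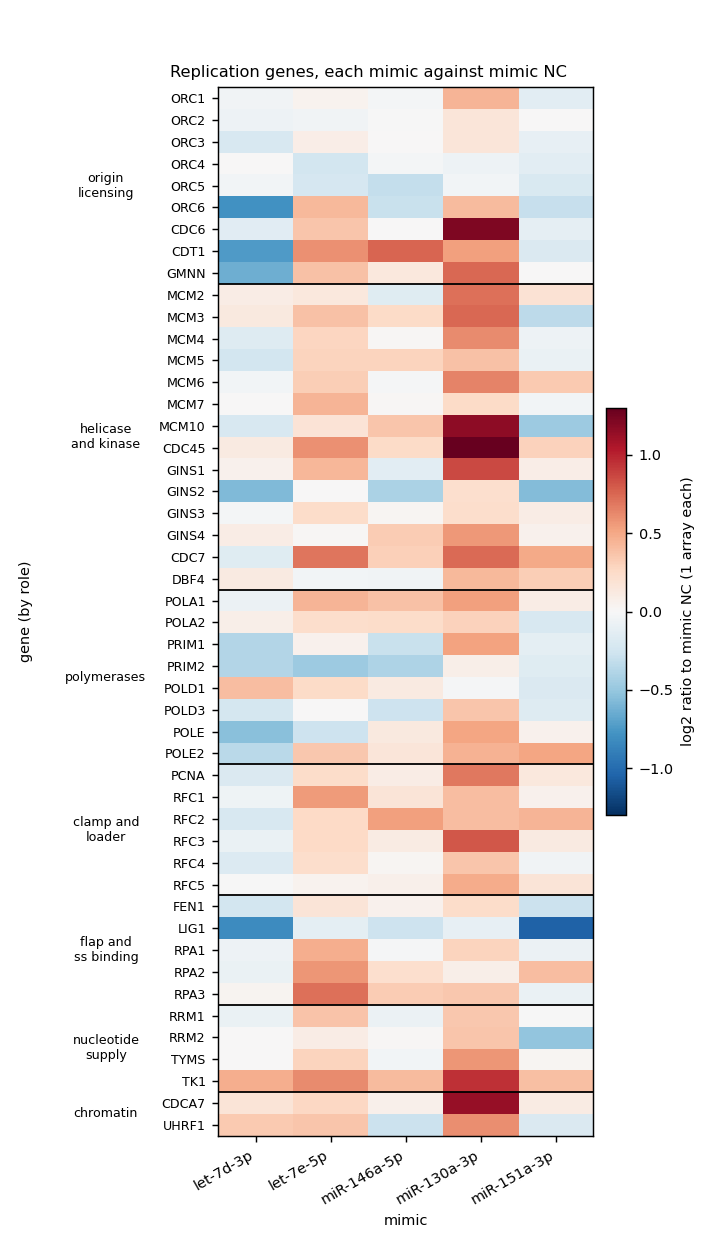
Log2 ratio of each of the 48 replication genes (rows, by role) to mimic NC for the 5 mimics (columns), 1 array each; red is higher and blue lower than mimic NC. The miR-130a-3p column is red in 44 of 48 rows, darkest for CDC45, CDC6, MCM10 and CDCA7.

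The helicase and its kinase had the highest ratios of the larger groups. All 14 genes were above mimic NC with miR-130a-3p (against 50.1% of all probe sets), with a median log2 ratio of 0.62. Of these, 8 were higher by at least 1.5-fold (against 3.88%). For 12 of the 14 no other array was as high (against 17.5%). CDC45, which joins the MCM ring to make it an active helicase, was at 9.17 with miR-130a-3p, 8.47 with let-7e-5p, 7.88 with mimic NC, 8.18 with miR-151a-3p, 8.13 with miR-146a-5p and 8.0 with let-7d-3p. Mimic NC was the lowest array for CDC45, and miR-130a-3p stood 0.70 above the next one.

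The 6 subunits of the MCM ring were all higher with miR-130a-3p, MCM3 by 1.68-fold, MCM2 by 1.65-fold, MCM6 by 1.56-fold, MCM4 by 1.53-fold, MCM5 by 1.3-fold and MCM7 by 1.19-fold. MCM2 was at 9.43 with miR-130a-3p, 8.85 with let-7e-5p, 8.71 with mimic NC, 8.90 with miR-151a-3p, 8.55 with miR-146a-5p and 8.81 with let-7d-3p. MCM3 was at 10.96 with miR-130a-3p, 10.59 with let-7e-5p, 10.21 with mimic NC, 9.87 with miR-151a-3p, 10.46 with miR-146a-5p and 10.34 with let-7d-3p. Both genes were highest with miR-130a-3p, by 0.53 and 0.37. MCM7 was the exception in the ring, since it was highest with let-7e-5p (11.19, against 11.00 with miR-130a-3p and 10.71 to 10.77 on the other 4 arrays). MCM5 had nearly the same level with miR-130a-3p (11.20) as with let-7e-5p and miR-146a-5p (11.11 each).

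MCM10, which helps to activate the helicase and recruits polymerase alpha, was at 6.13 with miR-130a-3p, 5.15 with let-7e-5p, 4.97 with mimic NC, 4.50 with miR-151a-3p, 5.33 with miR-146a-5p and 4.76 with let-7d-3p. It exceeded background on the miR-130a-3p array alone. The GINS complex, which completes the helicase, was less even than the MCM ring, with GINS1 1.82-fold higher (10.66 against 9.80), GINS4 1.47-fold, GINS3 1.17-fold and GINS2 1.16-fold higher. GINS2 was set apart by 3 low arrays, 7.45 with let-7d-3p, 7.46 with miR-151a-3p and 7.61 with miR-146a-5p, against 8.02 with mimic NC.

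CDC7 is the kinase that phosphorylates the MCM ring and DBF4 its activating subunit. CDC7 was at 8.49 with miR-130a-3p, 8.45 with let-7e-5p, 7.75 with mimic NC, 8.24 with miR-151a-3p, 8.06 with miR-146a-5p and 7.59 with let-7d-3p. The miR-130a-3p and let-7e-5p levels of CDC7 differed by only 0.04. DBF4 was highest with miR-130a-3p (9.30), followed by miR-151a-3p (9.20), and lay between 8.83 and 9.0 on the other 4 arrays.

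**Figure D3:**
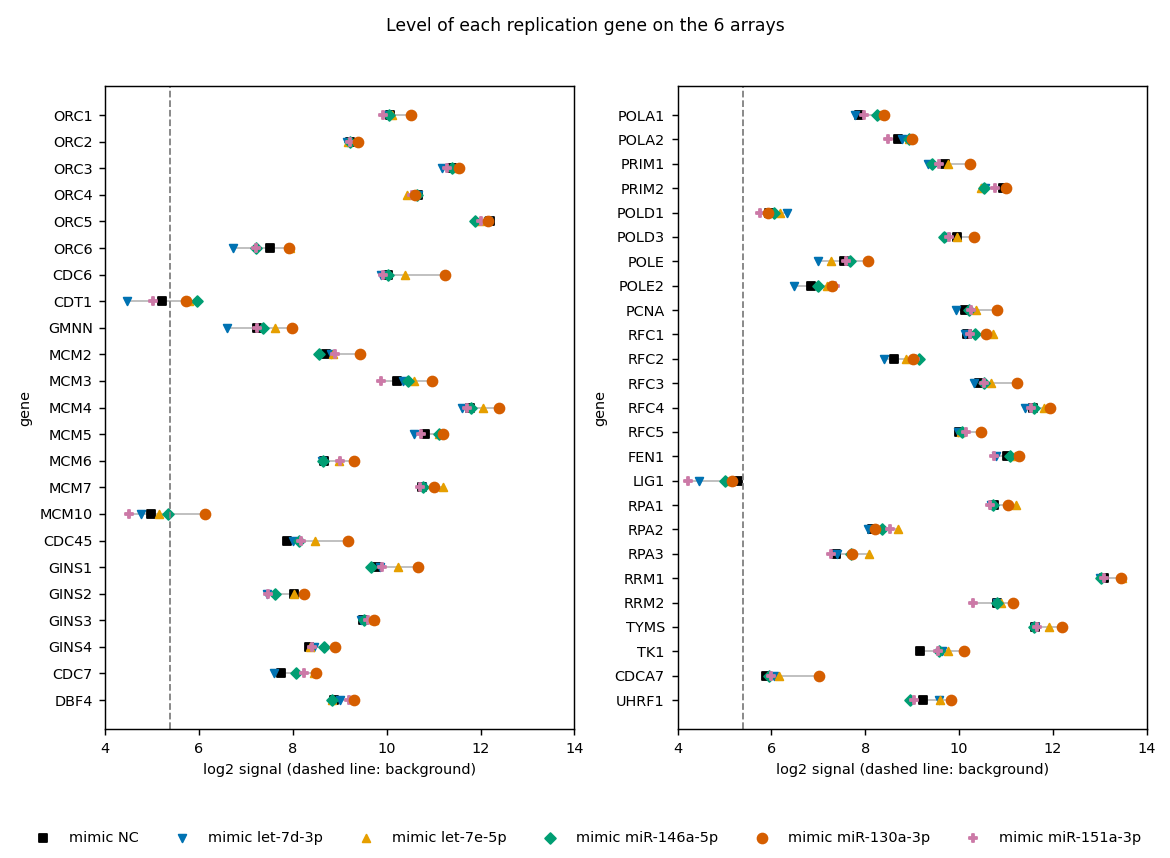
Log2 signal (horizontal axis) of the 48 replication genes (rows) on the 6 arrays, 1 symbol per array, with the dashed line at the background of 5.39. Levels are to be compared within a row; miR-130a-3p is rightmost in 33 rows, and CDC6 (0.85), CDCA7 (0.86) and CDC45 (0.70) show wide gaps to the next array. MCM10 is right of the background line on that array alone.

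The polymerase genes were higher with miR-130a-3p in 7 of 8 cases (against 50.1% of all probe sets), with a median log2 ratio of 0.41. However, none reached 1.5-fold (against 3.88%). POLA1 and POLA2, of the polymerase that starts each strand, were 1.44-fold and 1.23-fold higher. PRIM1, the catalytic subunit of primase, was 1.43-fold higher (10.23 against 9.71, and at most 9.77 on any other array), while the large primase subunit PRIM2 was at 11.01 against 10.93. PRIM2 was lowest with let-7e-5p (10.46), and miR-146a-5p (10.53) and let-7d-3p (10.55) were close to it. All 4 genes of polymerase alpha and primase had their highest level with miR-130a-3p (against 17.5% of all probe sets).

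POLE, the catalytic subunit of the leading strand polymerase, was at 8.05 with miR-130a-3p, 7.27 with let-7e-5p, 7.54 with mimic NC, 7.60 with miR-151a-3p, 7.67 with miR-146a-5p and 7.0 with let-7d-3p. It was 1.42-fold higher with miR-130a-3p and 1.45-fold lower with let-7d-3p. Its partner POLE2 was highest with miR-151a-3p (7.35), with miR-130a-3p at 7.29. POLD3, an accessory subunit of polymerase delta, stood at 10.32 with miR-130a-3p, 1.28-fold over mimic NC (9.96). The catalytic subunit POLD1, close to background at 5.75 to 6.34, was highest with let-7d-3p and did not share the pattern.

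The clamp and its loader were higher in every gene. PCNA is the ring that holds polymerases on DNA, and RFC1 to RFC5 are the subunits that load it. All 6 were above mimic NC with miR-130a-3p (against 50.1% of all probe sets), with log2 ratios of 0.36 to 0.81 (median 0.44). PCNA was at 10.81 with miR-130a-3p, 10.36 with let-7e-5p, 10.12 with mimic NC, 10.26 with miR-151a-3p, 10.22 with miR-146a-5p and 9.93 with let-7d-3p. RFC3 was at 11.23 with miR-130a-3p, 10.68 with let-7e-5p, 10.42 with mimic NC, 10.54 with miR-151a-3p, 10.53 with miR-146a-5p and 10.33 with let-7d-3p. Both stood clear of the next array with miR-130a-3p, by 0.45 for PCNA and 0.55 for RFC3.

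RFC1, the largest loader subunit, was instead highest with let-7e-5p (10.73, against 10.58 with miR-130a-3p), and RFC2 with miR-146a-5p (9.15, against 9.02). All 6 genes of the group had their lowest level of the 6 arrays with let-7d-3p (against 21.6% of all probe sets). The let-7d-3p differences from mimic NC were small, with log2 ratios from -0.01 to -0.21.

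Single-strand binding genes had another order. RPA1, RPA2 and RPA3 encode the complex that coats unwound DNA. All 3 were highest with let-7e-5p (against 12.4% of all probe sets) rather than miR-130a-3p. RPA3 was at 7.72 with miR-130a-3p, 8.09 with let-7e-5p, 7.37 with mimic NC, 7.28 with miR-151a-3p, 7.70 with miR-146a-5p and 7.41 with let-7d-3p. RPA2 was at 8.22 with miR-130a-3p, 8.71 with let-7e-5p, 8.14 with mimic NC, 8.54 with miR-151a-3p, 8.36 with miR-146a-5p and 8.05 with let-7d-3p. The let-7e-5p folds were 1.65 for RPA3, 1.48 for RPA2 and 1.39 for RPA1, against 1.27, 1.06 and 1.22 with miR-130a-3p. FEN1, the nuclease that trims Okazaki fragments, ranged from 10.75 with miR-151a-3p to 11.27 with miR-130a-3p, with let-7e-5p next at 11.20. LIG1, the ligase that joins the fragments, gave no usable ratio because all of its signals were below background.

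Nucleotide supply genes were all 4 above mimic NC with miR-130a-3p (against 50.1% of all probe sets), with a median log2 ratio of 0.46. TK1, which salvages thymidine, was at 10.11 with miR-130a-3p, 9.77 with let-7e-5p, 9.16 with mimic NC, 9.55 with miR-151a-3p, 9.57 with miR-146a-5p and 9.63 with let-7d-3p. Its lowest array was mimic NC, so all 5 mimics were above it, and miR-130a-3p was the highest at 1.93-fold. TYMS, which makes thymidylate, stood at 12.20 with miR-130a-3p, 1.48-fold over mimic NC (11.63), and the other 5 arrays lay from 11.59 to 11.92.

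RRM1 and RRM2 form ribonucleotide reductase, which makes deoxyribonucleotides. RRM1 was at 13.45 with miR-130a-3p, 13.47 with let-7e-5p, 13.10 with mimic NC, 13.09 with miR-151a-3p, 13.02 with miR-146a-5p and 13.01 with let-7d-3p. RRM2, the subunit that is limiting in S phase, was at 11.16 with miR-130a-3p, 10.90 with let-7e-5p, 10.80 with mimic NC, 10.29 with miR-151a-3p, 10.82 with miR-146a-5p and 10.80 with let-7d-3p. RRM1 was thus high on both the let-7e-5p and miR-130a-3p arrays, whereas RRM2 was high on the miR-130a-3p array and lowest with miR-151a-3p, 1.42-fold under mimic NC.

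Both chromatin factors were highest with miR-130a-3p (against 17.5% of all probe sets). CDCA7, which works with the remodeller HELLS in the maintenance of DNA methylation, was at 7.02 with miR-130a-3p, 6.16 with let-7e-5p, 5.89 with mimic NC, 6.0 with miR-151a-3p, 5.96 with miR-146a-5p and 6.06 with let-7d-3p. The gap to the next array was 0.86, and the other 5 arrays were near background. UHRF1, which brings the methyltransferase DNMT1 to newly copied DNA, was 1.52-fold higher (9.83 against 9.23), with let-7e-5p (9.59) and let-7d-3p (9.57) next.

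**Figure D4:**
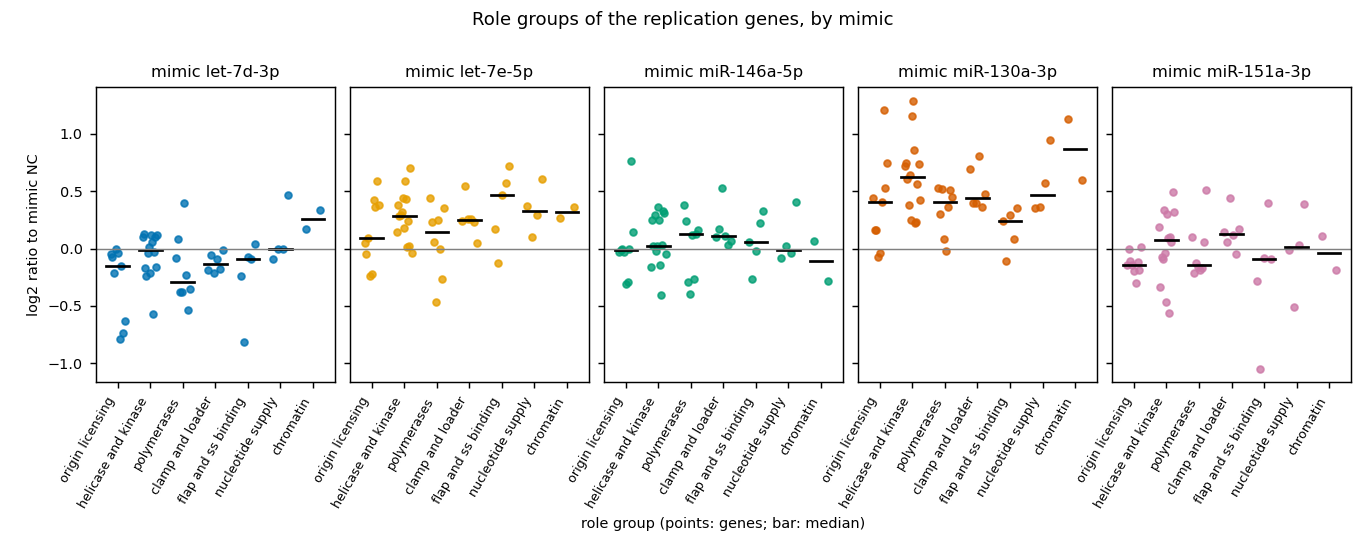
Log2 ratio to mimic NC (vertical axis) of the genes of each role group (points) with the group median (bar), 1 panel per mimic and 1 array per mimic. With miR-130a-3p the medians run from 0.24 (flap processing and single-strand binding) to 0.86 (chromatin factors, 2 genes), and with let-7d-3p from -0.29 (polymerases) to 0.26 (chromatin factors).

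The role groups thus differed in size of ratio with miR-130a-3p: 0.86 for the 2 chromatin factors, 0.62 for the helicase and its kinase, 0.46 for nucleotide supply, 0.44 for the clamp and its loader, 0.41 for origin licensing and for the polymerases, and 0.24 for flap processing and single-strand binding. The ranges of single genes met or overlapped between all groups with 3 exceptions. The chromatin factors (0.60 and 1.13) lay above the polymerases (-0.02 to 0.53) and above flap processing and single-strand binding (-0.11 to 0.35), and the clamp and its loader (0.36 to 0.81) lay just above the latter. These ranges are spreads over genes on the same pair of arrays and not over replicates. With only genes above background on all 6 arrays, the median was 0.28 for origin licensing and 0.27 for flap processing and single-strand binding. Without replicates no order of the groups, neighbouring or distant, could be told from noise.

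With let-7e-5p the replication genes were higher by less. Of the 48 genes 40 were above mimic NC (83.3%, against 48.4% of all probe sets), with a median log2 ratio of 0.26. At least 1.5-fold higher by the measured signals were 5 (10.4%, against 3.22% of all probe sets), namely RPA3, CDC7, TK1, CDC45 and CDT1. CDT1 was below background with mimic NC and its bound, at least 1.32-fold, was short of 1.5-fold, which leaves 4. None was at least 1.5-fold lower (2.5% of all probe sets). By group the median was highest for flap processing and single-strand binding (0.47) and lowest for origin licensing (0.09). The lowest ratio was that of PRIM2 (1.39-fold lower).

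With let-7d-3p the shift was small and downward in most genes. Of the 48 genes 32 were below mimic NC (66.7%, against 51.9% of all probe sets) and the median log2 ratio was -0.08, against -0.02 for all probe sets. At least 1.5-fold lower (3.81% of all probe sets) were ORC6 and GMNN. The measured signals of CDT1 and LIG1 also passed this threshold, but both arrays were below background and give no order. None was at least 1.5-fold higher (3.72%). TK1 (1.39-fold), POLD1 (1.32-fold) and UHRF1 (1.27-fold) were the genes with the highest ratios.

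With miR-146a-5p and miR-151a-3p the replication genes as a set stayed near mimic NC. The medians were 0.03 and -0.04, with 28 and 21 of 48 genes above mimic NC (58.3% and 43.8%, against 50.1% and 52.9% of all probe sets). With miR-146a-5p the measured signals put 1 gene past 1.5-fold higher (3.65% of all probe sets), CDT1, whose bound from background was at least 1.48-fold and so short of it. None was past 1.5-fold lower (2.77%). The other high ratios were RFC2 (1.44-fold) and TK1 (1.33-fold), and the low ones GINS2 (1.33-fold lower) and PRIM2 (1.32-fold lower). With miR-151a-3p none was at least 1.5-fold higher (4.48% of all probe sets), and the 1 gene past it lower by the measured signals (4.49%) was LIG1, below background on both arrays and so without an order. GINS2 was 1.47-fold lower, RRM2 1.42-fold and MCM3 1.27-fold lower, while POLE2 was 1.42-fold and CDC7 1.40-fold higher.

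Mimic NC itself was on the low side for these genes. With each gene centred on its mean over the 6 arrays, the median was -0.19 with let-7d-3p, -0.12 with mimic NC, -0.12 with miR-151a-3p, -0.06 with miR-146a-5p, 0.15 with let-7e-5p and 0.37 with miR-130a-3p. Over all probe sets above background the same medians lay between -0.02 and 0.02. The range of a replication gene over the 6 arrays had a median of 0.71 log2, against 0.51 for all probe sets above background.

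Other genes of replication, from 4 lists with 40 of 43 genes measured, were also mostly above mimic NC with miR-130a-3p. Of the 40, 32 were higher (80%, against 50.1% of all probe sets) and 7 lower, with a median log2 ratio of 0.27. At least 1.5-fold higher were 8 (20%, against 3.88%), and 23 were highest of the 6 arrays there (57.5%, against 17.5%). The fork checkpoint mediator CLSPN was 2.03-fold higher (9.86 against 8.84), WDHD1, which couples the helicase to polymerase alpha, 1.99-fold (8.83 against 7.84), and the helicase RECQL4 at least 1.73-fold higher. RECQL4 was below background with mimic NC alone, so all 5 mimics were above it. The bounds were at least 1.68-fold with miR-151a-3p, 1.53-fold with let-7e-5p, 1.4-fold with miR-146a-5p and 1.33-fold with let-7d-3p. The lowest were POLD4 and POLE4, small accessory subunits of polymerases delta and epsilon (1.22-fold and 1.17-fold lower), and SAMHD1, which degrades deoxyribonucleotides (1.13-fold lower, 15.48 against 15.66). The median was 0.30 for firing, fork and checkpoint factors, 0.29 for chromatin assembly, 0.25 for other polymerase, loader and processing subunits and 0.07 for other nucleotide enzymes.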

How the data were processed

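RNA of 6 THP-1 cultures was measured on Human Clariom S arrays, 1 per mimic and 1 for mimic NC. The authors deposited a log2 signal for each probe set, made by RMA in Transcriptome Analysis Console 4.0 per the submitters' processing notes. Its settings were not given in the sources used here. RMA makes arrays share one distribution, so a shift common to all genes would not be seen. The platform annotation gave 1 symbol for 17709 of 21448 probe sets (82.6%), and 3739 had none. All 48 replication genes matched RefSeq by Entrez identifier. All columns of the table were used.

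The log2 signal with mimic NC was subtracted from that with each mimic. With 1 array per group no model, p-value or interval could be had, and the number of arrays limits the precision. Genes were counted at 1.5-fold, beside the share of all 14667 probe sets above background that passed it. Where the dimmer signal was at or under background, a fold is given as "at least", from background. The counts and medians themselves use the deposited values.

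The replication genes, role groups and other lists were chosen with earlier results of these data known. Named were all 48 genes and, of the other replication genes, the 3 highest and 3 lowest ratios with miR-130a-3p. The calculation was tested on simulated data. Alternatives were other comparators, thresholds of 2-fold and of 0.32 log2, a pseudocount of 32, median centring, a second quantile normalization, subtraction of a lowess trend (span 0.3), filters on background, the brightest probe set per gene and the mean over genes. Raising dim signals to background was added after the data were seen. Python 3.11.15, pandas 2.3.3 and statsmodels 0.14.6 were used.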

Additional observations from a re-analysis of the deposited data

How the results depend on the processing

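With 13 alternative settings, 238 values of 27 results were recomputed, of which 206 kept their sign and differed from the value in the report by less than the median absolute log2 ratio of all probe sets (0.160 to 0.190) or, for counts, by at most 1.5 times. No paired analysis was possible because there was only 1 array of each kind. The median with miR-130a-3p, its role group medians and the count of 33 genes highest there changed by less than that under every setting run. Its count at 1.5-fold, 15, was 4 at 2-fold and 34 at the 0.32 log2 threshold. The median with miR-146a-5p, 0.03, was -0.01 against the median of the other 5 arrays and -0.08 against that of the other 4 mimics, and the let-7d-3p median, -0.08, was -0.27 against the other 4 mimics. The count of genes higher with let-7e-5p, 5, was 3 against the other 5 arrays, 1 against the other 4 mimics, 2 with the pseudocount, 0 at 2-fold and 18 at the 0.32 log2 threshold. For miR-146a-5p the count of 1 higher was 0 with the pseudocount, with genes above background on all 6 arrays, with dim signals raised to background and at 2-fold, and 7 at the 0.32 log2 threshold, and the count of 0 lower was 1 against either median of other arrays. At the 0.32 log2 threshold 3 genes were higher with let-7d-3p and 6 with miR-151a-3p, from 0. The 4 genes lower with let-7d-3p were 8 against either median of other arrays, 1 with the pseudocount, and 2 with genes above background on all 6 arrays or dim signals raised. The 1 gene lower with miR-151a-3p was 4 against either median of other arrays, 2 with repeated quantile normalization or the lowess trend removed, and 0 with the pseudocount, either filter on background or dim signals raised. These counts are small, and the cause was not tested beyond what each setting changes. Signals near background limit CDT1, MCM10, LIG1, POLD1 and CDCA7. CDCA7 is 1 of the 2 chromatin factors, whose median with miR-130a-3p, 0.86, was 0.70 with the pseudocount.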

Other observations

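Genes that control entry into S phase were also above mimic NC on the miR-130a-3p array in 14 of 17 cases (82.4%, against 50.1% of all probe sets). Their median log2 ratio was 0.31, and 5 were at least 1.5-fold higher (29.4%, against 3.88%). The 14 include E2F2, which was below background on all 6 arrays and so has no order. The phosphatase CDC25A, which activates cyclin-dependent kinases, was at 7.56 against 6.42 (2.20-fold). CCNE2, a cyclin of the G1 to S transition, was at 11.49 against 10.47 (2.03-fold), and SKP2, a subunit of the ubiquitin ligase that degrades the inhibitor p27, at 11.51 against 10.71 (1.74-fold). E2F1 was 1.69-fold higher (6.83 against 6.07). CDKN1B, which encodes p27, was at 7.49 against 7.73, and CDKN1A, which encodes the inhibitor p21, at 15.20 against 15.10. The cyclin CCND3 had another order, above mimic NC with all 5 mimics and highest with miR-146a-5p (13.81 against 12.75).

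Of 17 genes of mitosis 14 were above mimic NC with miR-130a-3p (82.4%, against 50.1% of all probe sets), with a median of 0.24. At least 1.5-fold higher were 2 (11.8%, against 3.88%), CDK1 (1.65-fold) and MKI67 (1.6-fold). AURKB, UBE2C and CDC20 were below mimic NC there, with log2 ratios of -0.23, -0.23 and -0.19. With let-7e-5p 10 of the 17 were above mimic NC (58.8%, against 48.4% of all probe sets), with a median of 0.05. At least 1.5-fold higher there were 3 (17.6%, against 3.22%), MKI67 (1.66-fold), KIF11 (1.62-fold) and CDK1 (1.58-fold). Whether the replication and mitosis lists differ was not tested, since each rests on the same pair of arrays. The mitotic genes named were picked after their values were seen.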
